A study of Mus musculus with 20 samples.

Results

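Cxcl9-negative tumour macrophages are the macrophages of B16-OVA melanomas in which no transcript of Cxcl9, the interferon-induced chemokine that attracts T cells through CXCR3, was counted. They numbered 265 of 744 macrophages and of 7398 cells kept from 4 single-cell RNA libraries. A cell was kept with at least 500 genes and at most 10% mitochondrial unique molecular identifiers (UMIs, counted transcript molecules). A kept cell was taken as a macrophage with at least 20 UMIs of C1qa, C1qb, C1qc and Lyz2 together, at least 4 of them from the C1q genes, at most 2 from Cd3d, Cd3e and Cd3g, and fewer than 10 from the pigment genes Mlana, Pmel, Dct and Tyrp1. The cells were thus chosen by their measured Cxcl9, C1q, Lyz2, Cd3 and pigment UMIs, and the levels of those genes are given only as description.

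The study transferred OT-I CD8 T cells, whose receptor recognises ovalbumin, into mice bearing B16 melanoma that makes ovalbumin (B16-OVA), and collected tumour-infiltrating cells 8 days after transfer. The transferred T cells were wild-type or TET2 knockout, from Tet2-/- mice crossed with OT-I. TET2 is a dioxygenase that oxidises 5-methylcytosine in DNA. The recipients received no antibody or anti-PD-L1, an antibody that blocks PD-L1, which restrains T cells by binding PD-1. The 4 groups were thus wild-type untreated, wild-type anti-PD-L1, knockout untreated and knockout anti-PD-L1, with 1 library each, and all values of 4 libraries below are given in that order. The labels describe the libraries as CD8 tumour-infiltrating lymphocytes, so macrophages are other cells carried in them. The labels do not give the genotype of the recipients, the number or pooling of animals, the age of the mice, the antibody dose or how infiltrating cells were enriched. The genotype label is that of the T cells, and the shares and levels below also depend on how the cells were collected. With 1 library per group, differences between groups have no replicate check and no test was made. All intervals cover counting error only, and a group and its library cannot be told apart.

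Tumour macrophages arise mainly from blood monocytes and mature in the tumour. Interferon-gamma from T cells drives a program of Cxcl9, antigen presentation and other interferon-induced genes, while dying cells, lipid, low oxygen and cytokines such as interleukin-4 go with a program of scavenging, lipid handling, matrix remodelling and arginine use. Apolipoprotein E and the transporters ABCA1 and ABCG1 carry cholesterol out of macrophages, CD36 and other scavenger receptors carry lipid in, and perilipin and HILPDA hold it in droplets. Arginase 1, encoded by Arg1, breaks down arginine, which T cells need.

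The 4 tables held 2384, 1680, 2312 and 1346 barcodes. The Cxcl9-negative macrophages were 79, 55, 99 and 32 cells with 229877, 319133, 450038 and 282436 UMIs in all. Their median depth was 2829, 5239, 4072 and 8308 UMIs per cell, against 3124, 8460, 4978 and 9743 UMIs in the Cxcl9-positive macrophages of the same libraries. No Cxcl9-negative macrophage shared its barcode with such a cell of another library. Melanoma cells numbered 903, 68, 182 and 48 of the kept cells, so the wild-type untreated library also held the most tumour cells. Tet2 itself was counted in 7, 8, 15 and 10 UMIs of the Cxcl9-negative macrophages, and in 14, 16, 23.3 and 18 CPM (counts scaled to a library total of 1000000) in T cells. This kit counts 3′ ends, so the level checks nothing about a deletion elsewhere in Tet2.

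The cells without a Cxcl9 UMI made up a smaller share of macrophages in the knockout libraries than in the wild-type libraries. The share was 45.4% (95% Clopper-Pearson interval 37.9 to 53.1), 48.2% (38.8 to 57.8), 32% (26.9 to 37.6) and 21.8% (15.4 to 29.3). Deeper cells show more genes, so each macrophage was also thinned to 2000 UMIs, which left out none. The share without a Cxcl9 UMI was then 56.9% (49.2 to 64.4), 62.3% (52.7 to 71.2), 44% (38.4 to 49.7) and 36.7% (28.9 to 45.1). At either depth the knockout anti-PD-L1 library was lowest, and its interval lay below those of both wild-type libraries. Macrophages of both kinds were 7.58%, 7.11%, 13.9% and 11.5% of kept cells, and Cxcl9-negative ones 3.44%, 3.43%, 4.46% and 2.51%. T cells, which should lack Cxcl9, had a Cxcl9 UMI in 0.267%, 0.604%, 0.513% and 0.485% of cells at 2000 UMIs, at own median depths of 3756, 5445, 4450 and 6807 UMIs.

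**Figure D1:**
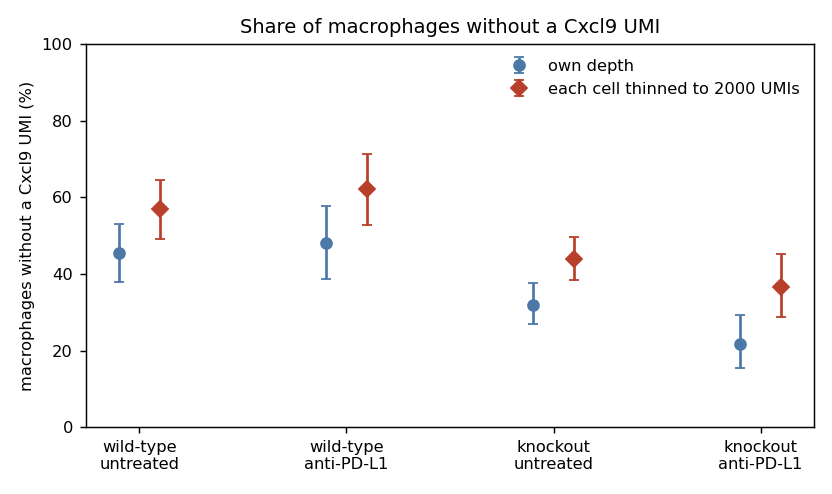
Share of macrophages without a Cxcl9 UMI (percent, y axis) in each of the 4 libraries (x axis), at the cells' own depth and after thinning each cell to 2000 UMIs. Points are shares and lines their 95% Clopper-Pearson intervals, and both knockout libraries lie below both wild-type libraries at either depth.

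Many of these cells lie near the edge of the rule. Of the macrophages, 38, 5, 31 and 8 had exactly 1 Cxcl9 UMI, 82 in all. Taken library by library, their levels did not always lie between those of cells with none and cells with more. Cells with no, 1, and 2 or more Cxcl9 UMIs had Apoe levels of 14238, 9124 and 11926 CPM in the wild-type untreated library, 12431, 6311 and 7463 CPM in wild-type anti-PD-L1, 9555, 7384 and 5756 CPM in knockout untreated and 8441, 4006 and 6254 CPM in knockout anti-PD-L1. Cells with 1 Cxcl9 UMI were thus below those with none in all 4, and in 3 of the 4 also below those with more. Arg1 in cells with none and with 1 was at 396 and 904, 959 and 0, 907 and 206, and 1087 and 541 CPM, so only the wild-type untreated library had more in cells with 1. H2-Ab1, a class II histocompatibility chain, was highest in cells with 2 or more Cxcl9 UMIs in all 4 libraries, but in cells with 1 it was above the level of cells with none only in the untreated libraries. Pooled over the 4 libraries, cells with 1 lay between the others for Apoe (10866, 7233 and 6688 CPM). The same held for Arg1 (868, 495 and 162 CPM) and H2-Ab1 (4839, 6237 and 9208 CPM). Cd36 (242, 71.6 and 75.6 CPM) and the phospholipid transfer gene Pltp (357, 112 and 164 CPM) were lowest in cells with 1. The libraries held unequal numbers of such cells, so pooled levels also mix libraries. No cell lay just under the C1q and Lyz2 threshold at 18 or 19 UMIs. On the other sides of the gate, 10, 7, 13 and 1 cells that passed otherwise had 3 or more Cd3 UMIs, and 4, 0, 1 and 0 had 10 or more pigment UMIs. No Cd3 UMI at all was found in 69, 46, 87 and 26 of the Cxcl9-negative macrophages.

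The markers given for these cells were present in every library. The complement genes C1qa, C1qb and C1qc, which the rule used, stood at 4161 CPM or more in each library. Apoe (GRCm38 chr7:19696244-19701310) was at 14238, 12431, 9555 and 8441 CPM and was found in 73, 49, 82 and 27 cells. After thinning to 2000 UMIs, an Apoe UMI was seen in 92.4%, 87.3%, 76.8% and 81.2% of the cells, and in 4.89%, 1.51%, 1.86% and 2.52% of T cells. Arg1 (chr10:24915207-24927470) was at 396, 959, 907 and 1087 CPM, with a UMI in a minority of cells. It was found at 2000 UMIs in 22.8% (14.1 to 33.6), 36.4% (23.8 to 50.4), 30.3% (21.5 to 40.4) and 43.8% (26.4 to 62.3) of them, against at most 0.302% of T cells. Most Cxcl9-negative macrophages therefore had no Arg1 UMI at this depth, which does not show that they lack Arg1.

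Markers of other cells were mostly low. The 12 CD8 T cell genes summed to 313, 147, 129 and 81.4 CPM, against 13289 to 15949 CPM in T cells. They include Cd3d, Cd3e and Cd3g, which the gate limited in macrophages and which chose the T cells. The rule thus sets part of this gap. Cxcl9-positive macrophages had less of the 12 genes, at 211, 79.6, 95.5 and 66.6 CPM. The T cell gene Trbc2 was at least 1.5-fold higher in Cxcl9-negative than in Cxcl9-positive macrophages in all 4 libraries, but not higher in all 4 when thinned. The 10 melanoma genes summed to 278, 116, 82.2 and 63.7 CPM, highest in the library with the most tumour cells. They include Mlana, Pmel, Dct and Tyrp1, which the gate limited too, so the rule also sets part of this low sum. Of 10 dendritic cell genes 8 had a UMI, and they summed to 21.8, 12.5, 24.4 and 21.2 CPM, with Flt3 and Zbtb46 at 0. Of 8 neutrophil genes 3 had a UMI, summing to 17.4, 62.7, 80 and 46 CPM, with S100a9 at 0. Of 6 B cell genes only Cd79b and Ighm had a UMI, summing to 200, 97.1, 73.3 and 124 CPM, against 161 to 317 CPM in T cells, with Cd79a at 0. All 6 mast cell and basophil genes were at 0. Fibroblast and endothelial genes, with 8 of 9 detected, summed to 8.7, 50.1, 260 and 81.4 CPM, against 18.9, 151, 27 and 220 CPM in Cxcl9-positive macrophages. The part of these markers in the differences below was not tested.

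The lipid genes of these cells were mostly higher in the knockout untreated than in the wild-type untreated library. A list of 21 lipoprotein and cholesterol transport genes had 12 members at a mean of 50 CPM or more, the level required of every gene counted below. Of these 12, 8 were at least 1.5-fold higher and none 1.5-fold lower in knockout over wild-type untreated libraries, with a median log2 ratio of 0.68. For 6 of the 8 the counting interval left out no change. All ratios, medians of lists and statements of higher by an amount below are on the log2 scale, with the 95% counting interval in brackets where given. Over all 2374 genes past that level, 14.9% were 1.5-fold higher and 13% lower in this comparison, with a median of -0.05. In the 5 fatty acid genes past that level, of 22, 4 were 1.5-fold higher and none lower, and the median was 0.94. In Cxcl9-positive macrophages of these libraries, the transport genes had a median of 0.63 and the fatty acid genes one of -0.25. The transport shift was thus not particular to Cxcl9-negative cells. Under anti-PD-L1, 2 of the 12 transport genes were higher in knockout over wild-type cells and none lower (median 0.12). Of the 5 fatty acid genes, 1 was higher and 1 lower there (median 0.00), against 13.7% and 8.59% of all genes.

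Cd36, the receptor for oxidised lipoprotein and fatty acids, was at 95.7, 301, 300 and 202 CPM in 14, 32, 43 and 18 cells. The wild-type untreated library was low, and the other 3 stood between 202 and 301 CPM. The log2 ratio was 1.65 (95% counting interval 0.99 to 2.37) for knockout over wild-type untreated, and 1.65 (0.97 to 2.39) for anti-PD-L1 over untreated in wild-type. It was -0.58 (-1.07 to -0.09) for knockout over wild-type under anti-PD-L1 and -0.57 (-1.04 to -0.11) for anti-PD-L1 over untreated in knockout. T cells held at most 1.21 CPM of Cd36.

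The cholesterol efflux genes followed the same order for the wild-type untreated library. Abca1, which loads cholesterol onto apolipoprotein A-I, was at 47.9, 132, 93.3 and 117 CPM, and Abcg1, which loads it onto high-density lipoprotein, at 43.5, 97.1, 120 and 117 CPM. The wild-type untreated library was the lowest for both, and the other 3 lay close together. The log2 ratio for anti-PD-L1 over untreated in wild-type was 1.46 (0.48 to 2.57) for Abca1 and 1.16 (0.09 to 2.35) for Abcg1. Pltp, the phospholipid transfer protein, was at 209, 426, 316 and 467 CPM, higher in each anti-PD-L1 library than in the untreated library of its genotype, by 1.03 (0.54 to 1.54) and 0.57 (0.21 to 0.92) on the log2 scale. Only the first of these is past 1.5-fold. Nr1h3, the oxysterol receptor LXR-alpha that induces Abca1 and Apoe, was at 65.3, 53.3, 116 and 131 CPM, higher in both knockout libraries, with log2 ratios of 0.82 (-0.03 to 1.76) and 1.30 (0.43 to 2.22). The first turns to -0.04 when macrophages are thinned before Cxcl9 is read.

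Apoe did not follow its transport partners. Its level was lower in the knockout library at either treatment, with log2 ratios of -0.58 (-0.64 to -0.51) and -0.56 (-0.63 to -0.48), both just under 1.5-fold. A few cells carried much of it in the smallest library, where the highest cell gave 37% of Apoe UMIs, against 9.62%, 9.73% and 14.6% in the others. Lpl, lipoprotein lipase, was at 496, 345, 616 and 407 CPM, lower in each anti-PD-L1 library, with log2 ratios of -0.52 (-0.92 to -0.13) and -0.60 (-0.92 to -0.28). Npc2, which hands cholesterol out of the lysosome, was found in 76, 55, 99 and 32 cells, nearly all, at 1792, 2479, 2944 and 3002 CPM. Soat1, which esterifies cholesterol for storage, stayed between 109 and 132 CPM.

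Droplet and fatty acid carrier genes were the other lipid genes with large differences. Hilpda, a droplet protein that inhibits the lipase ATGL, was at 144, 363, 631 and 779 CPM in 17, 31, 64 and 24 cells. Both knockout libraries were above both wild-type libraries, by 2.14 (1.61 to 2.70) untreated and 1.10 (0.77 to 1.44) under anti-PD-L1 on the log2 scale. T cells carried 74.3, 297, 233 and 272 CPM of Hilpda, so it is not a macrophage gene alone in these tumours. Plin2, the coat protein of lipid droplets, was at 474, 774, 902 and 832 CPM, with only the wild-type untreated library standing lower. Fabp5, an intracellular fatty acid carrier, was at 1653, 1952, 3173 and 1951 CPM, and Fabp4, its relative, at 95.7, 116, 258 and 70.8 CPM. Both were highest in the knockout untreated library. Fabp4 was 1.43 (0.76 to 2.16) higher there than in wild-type untreated cells. In knockout cells its ratio of anti-PD-L1 over untreated was -1.86 (-2.63 to -1.17). In the knockout untreated library 1 cell gave 30.2% of Fabp4 UMIs, and the gene was in 12, 12, 24 and 8 cells. No gene of the 16 for sterol synthesis reached 50 CPM, and the list summed to 257, 100, 131 and 152 CPM.

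**Figure D2:**
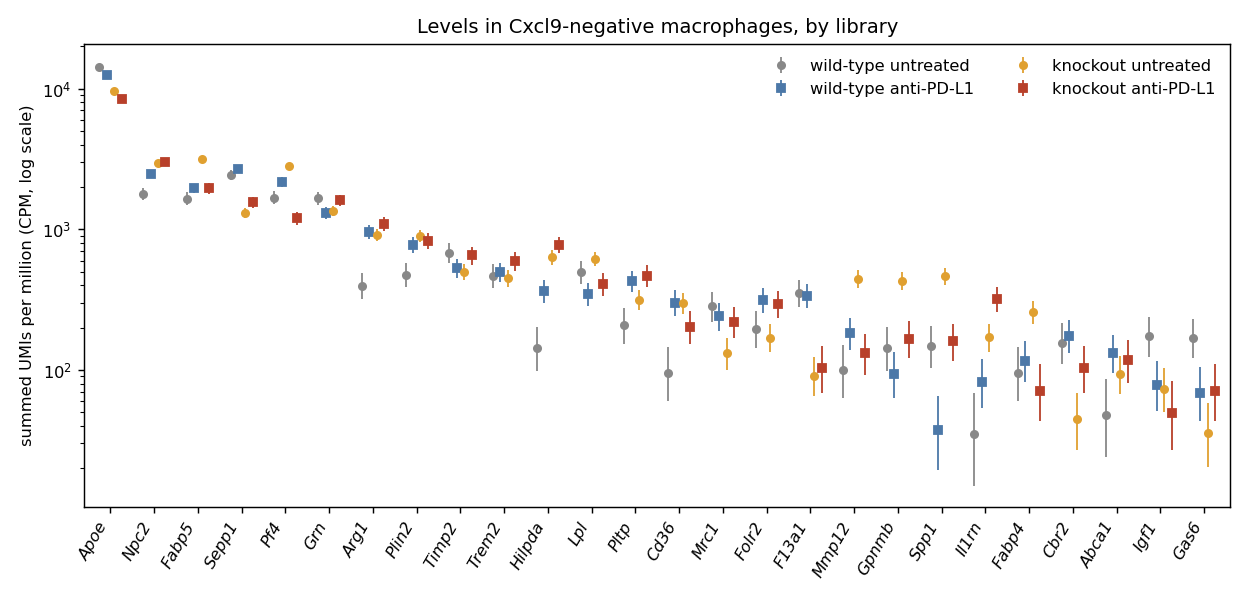
Levels of lipid and tissue-repair genes (CPM, log axis) in the Cxcl9-negative macrophages of each library, with lines for 95% counting intervals. Cd36, Abca1 and Hilpda are lowest in the wild-type untreated library, and F13a1 and Sepp1 are lower in both knockout libraries.

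Genes of alternative activation, the state macrophages take with interleukin-4, were mostly lower in the knockout untreated library. Of 9 past 50 CPM, 5 were 1.5-fold lower and 2 higher than in wild-type untreated cells, against 13% and 14.9% of all genes. The median log2 ratio of the 9 was -1.06. These genes had a median of -1.18 in Cxcl9-positive macrophages, so the shift was not particular to Cxcl9-negative cells. Under anti-PD-L1, 3 of the 9 were lower in knockout cells and none higher (median -0.14), against 8.59% and 13.7% of all genes. Mrc1, the mannose receptor, was at 283, 241, 131 and 220 CPM. The knockout untreated library was the low one, with a log2 ratio of -1.11 (-1.64 to -0.58) against wild-type, and the knockout anti-PD-L1 library differed from its wild-type counterpart by -0.14 (-0.64 to 0.37). Clec10a, a galactose lectin, was at 174, 87.7, 40 and 46 CPM, and Cbr2, a carbonyl reductase, at 157, 175, 44.4 and 103 CPM. Both genes were lower in knockout at either treatment, with log2 ratios of -2.12 (-3.01 to -1.29) and -0.93 (-2.00 to 0.07) for Clec10a and of -1.82 (-2.68 to -0.99) and -0.77 (-1.47 to -0.10) for Cbr2. Maf, a transcription factor of tissue macrophages, was at 231, 147, 91.1 and 103 CPM.

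Arg1 did not share the direction of most of that list. It was higher than in wild-type untreated cells by 1.20 (0.86 to 1.54) in knockout untreated cells and by 1.28 (0.93 to 1.63) in wild-type anti-PD-L1 cells. The other 2 ratios were 0.18 (-0.05 to 0.41) and 0.26 (0.04 to 0.48). Few cells weighed heavily, since the highest cell gave 23.1%, 35%, 20.1% and 24.4% of all Arg1 UMIs. Retnla, the resistin-like molecule RELM-alpha, was at 43.5, 107, 118 and 42.5 CPM in only 1, 2, 3 and 1 cells, so no ratio of it describes the class. It is still in the counts of that list, as higher in knockout untreated cells and as lower in knockout under anti-PD-L1. Folr2, the folate receptor beta of resident-type macrophages, was at 196, 313, 169 and 294 CPM and higher in both anti-PD-L1 libraries, by 0.68 (0.16 to 1.22) and 0.80 (0.33 to 1.27). In anti-PD-L1 over untreated knockout cells, 5 of the 9 genes were 1.5-fold higher and 1 lower, against 11.2% and 6.99% of all genes.

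Secreted repair factors split in both directions. Of 11 past 50 CPM, 5 were 1.5-fold higher and 4 lower in knockout over wild-type untreated cells, against 14.9% and 13% of all genes. Under anti-PD-L1, 2 were higher and 5 lower, against 13.7% and 8.59% of all genes. Sepp1, the selenium carrier selenoprotein P, was at 2436, 2673, 1298 and 1554 CPM. Both knockout libraries were below both wild-type libraries, with log2 ratios of -0.91 (-1.08 to -0.74) untreated and -0.78 (-0.95 to -0.61) under anti-PD-L1. Igf1, insulin-like growth factor 1, was at 174, 78.3, 73.3 and 49.6 CPM, and Gas6, which bridges dying cells to the receptors AXL and MERTK, at 170, 68.9, 35.6 and 70.8 CPM. Both were highest in the wild-type untreated library. Igf1 in knockout over wild-type cells was -1.25 (-1.96 to -0.55) without antibody and -0.66 (-1.72 to 0.34) with it, and the second turns to 0.49 when macrophages are thinned before Cxcl9 is read. Gas6 was -2.25 (-3.19 to -1.38) in knockout over wild-type untreated cells and 0.04 (-0.91 to 0.98) under anti-PD-L1.

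Il1rn, the interleukin-1 receptor antagonist, had the reverse order, at 34.8, 81.5, 171 and 319 CPM in 8, 14, 38 and 23 cells. Its log2 ratio of knockout over wild-type was 2.30 (1.25 to 3.56) untreated and 1.97 (1.32 to 2.66) under anti-PD-L1. Pf4, platelet factor 4, was at 1684, 2172, 2804 and 1197 CPM, higher in knockout than wild-type cells without antibody, by 0.74 (0.57 to 0.90), and lower with it, with a log2 ratio of -0.86 (-1.05 to -0.67). Thbs1, thrombospondin 1, was at 21.8, 179, 136 and 81.4 CPM in 4, 22, 30 and 9 cells. Grn, progranulin, was found in 76, 54, 96 and 32 cells, nearly all, and stayed between 1310 and 1662 CPM. Spp1, osteopontin, was at 148, 37.6, 464 and 159 CPM, below the 427 to 696 CPM of T cells in all libraries but knockout untreated, so free RNA of other cells cannot be told apart from their own, and no order is read from it. It is still among the repair factors counted as higher in knockout cells at either treatment.

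Matrix remodelling genes were higher in the knockout untreated and the wild-type anti-PD-L1 library than in wild-type untreated cells. Of 7 past 50 CPM, 4 were 1.5-fold higher and none lower in each of these comparisons, with medians of 0.88 and 0.86. Cxcl9-positive macrophages had medians of 0.02 and 0.15 for these genes. In knockout over wild-type under anti-PD-L1, 2 of the 7 were higher and none lower (median 0.31), against 13.7% and 8.59% of all genes. Over all genes, knockout over wild-type untreated had 14.9% higher and 13% lower, and anti-PD-L1 over untreated in wild-type 14.3% and 15.8%. Plaur, the urokinase receptor, was at 100, 213, 184 and 425 CPM, with each of the 4 ratios between 0.88 and 1.20 on the log2 scale and each counting interval above 0. Adam8, a membrane protease, was at 144, 210, 307 and 326 CPM, higher in knockout by 1.09 (0.54 to 1.69) and 0.63 (0.16 to 1.11). Mmp12, macrophage elastase, was at 100, 182, 444 and 131 CPM but in only 3, 8, 22 and 4 cells, and 1 cell gave 60.9% and 83.8% of it in the wild-type untreated and knockout anti-PD-L1 libraries. Timp2, a metalloprotease inhibitor, was at 679, 526, 496 and 651 CPM and Tgfbi, a matrix protein, at 479, 351, 389 and 499 CPM, with no ratio past 1.5-fold. Mmp9 had no UMI.

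Receptors for dying cells and debris had no common direction. Of 10 past 50 CPM, 3 were higher and 2 lower in knockout over wild-type untreated cells, against 14.9% and 13% of all genes. Under anti-PD-L1 1 was higher and 1 lower, near the 13.7% and 8.59% of all genes. Trem2, a lipid-sensing receptor, was at 465, 495, 449 and 595 CPM, and its adaptor Tyrobp at 3154, 3478, 3286 and 3112 CPM in nearly all cells. The ratios of Trem2 ran from -0.05 to 0.41, of Tyrobp from -0.16 to 0.14. Msr1, scavenger receptor A, stood at 244, 185, 273 and 315 CPM. F13a1, the coagulation factor XIII A chain, on the monocyte list, was at 352, 335, 91.1 and 103 CPM, and the knockout libraries were lower, with log2 ratios of -1.95 (-2.53 to -1.39) and -1.71 (-2.35 to -1.10). Antibody ratios of F13a1 were -0.07 (-0.50 to 0.36) and 0.17 (-0.57 to 0.89).

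Iron and haem genes belong to the clearing of red cells and debris. Hmox1, haem oxygenase 1, was at 927, 1028, 1649 and 1682 CPM, higher in knockout libraries by 0.83 (0.61 to 1.06) and 0.71 (0.50 to 0.92) and little different with antibody, at 0.15 (-0.10 to 0.41) and 0.03 (-0.14 to 0.20). The ferritin chains Fth1 and Ftl1 were highest in the knockout untreated library, at 32397 and 35595 CPM, against 20389 to 23573 and 20115 to 26904 CPM in the others. Trf, transferrin, was at 270, 332, 160 and 173 CPM, lower in knockout, with log2 ratios of -0.75 (-1.26 to -0.24) and -0.94 (-1.46 to -0.44).

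Genes of glycolysis and of the response to low oxygen had more members higher than lower in the knockout libraries. Of 23 listed, 19 passed 50 CPM. In knockout over wild-type untreated cells 5 were 1.5-fold higher and none lower (median 0.22), and under anti-PD-L1 7 were higher and none lower (median 0.48). Over all genes, 14.9% were higher and 13% lower untreated (median -0.05), and 13.7% and 8.59% under anti-PD-L1 (median 0.07). Bnip3, a mitochondrial protein of mitophagy, was at 174, 285, 280 and 368 CPM. Ndrg1, a stress-response gene, was at 60.9, 72.1, 133 and 156 CPM, higher in knockout by 1.13 (0.27 to 2.08) and 1.11 (0.35 to 1.91). Slc2a1, the glucose transporter GLUT1, was at 60.9, 75.2, 120 and 99.1 CPM, and Ldha, lactate dehydrogenase A, at 1653, 1094, 1533 and 1749 CPM.

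The 250 bases before the transcription starts of these genes were read from RefSeq (GRCm38.p6). The letters looked for, on either strand, were the core ACGTG, bound by hypoxia-inducible and E-box factors. CACGTG holds ACGTG on both strands. Of the 18 hypoxia and glycolysis genes with an entry, 11 held ACGTG (61.1%), against 18.5% of all 27025 genes with an entry. Of the lipid genes past 50 CPM, 2 of 12 with an entry held it (Abca1 and Hilpda, 16.7%), and of the repair genes 2 of 28 (Cd44 and Gdf15, 7.14%). The first list was drawn up from genes of glycolysis and the response to low oxygen, so a higher share can come with that choice. It describes the list and says nothing about these cells, and the background was not limited to expressed genes. A match is a run of letters and shows no binding. The stretches below run 5′ to 3′ on the gene's strand up to the start, with the matched letters, on either strand, in capitals. They are shown for 3 of those 11 genes and for the lipid exporter with a match.
Bnip3, chr7:138909507-138909756, minus strand: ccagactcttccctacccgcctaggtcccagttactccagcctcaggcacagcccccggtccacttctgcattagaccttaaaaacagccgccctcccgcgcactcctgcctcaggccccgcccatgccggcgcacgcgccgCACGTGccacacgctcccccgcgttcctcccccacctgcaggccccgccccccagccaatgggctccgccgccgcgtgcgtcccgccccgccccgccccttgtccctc
Slc2a1, chr4:119108495-119108744, plus strand: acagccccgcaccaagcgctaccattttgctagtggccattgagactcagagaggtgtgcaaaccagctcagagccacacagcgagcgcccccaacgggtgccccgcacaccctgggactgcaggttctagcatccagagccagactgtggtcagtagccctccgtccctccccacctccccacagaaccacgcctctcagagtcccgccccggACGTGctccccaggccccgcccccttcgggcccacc
Ldha, first of 2 starts, chr7:46845554-46845803, plus strand: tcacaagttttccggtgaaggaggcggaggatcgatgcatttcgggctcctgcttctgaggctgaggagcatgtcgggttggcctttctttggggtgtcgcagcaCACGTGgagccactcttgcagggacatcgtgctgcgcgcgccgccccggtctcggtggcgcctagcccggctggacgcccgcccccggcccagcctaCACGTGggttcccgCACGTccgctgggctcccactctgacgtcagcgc
Abca1, chr4:53159896-53160145, minus strand: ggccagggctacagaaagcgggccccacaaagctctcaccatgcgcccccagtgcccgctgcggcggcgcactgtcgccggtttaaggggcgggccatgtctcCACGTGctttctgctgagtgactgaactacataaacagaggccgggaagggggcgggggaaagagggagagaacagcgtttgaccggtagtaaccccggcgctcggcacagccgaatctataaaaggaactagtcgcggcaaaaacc

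Within each library, most lipoprotein and cholesterol transport genes were higher in Cxcl9-negative than in Cxcl9-positive cells, and class II presentation genes were lower. This contrast follows from how the cells were chosen and is a description, with no test. Of 2393 genes compared, 349 (14.6%) were higher and 411 (17.2%) lower in all 4 libraries, and 28 (1.17%) and 19 (0.794%) by at least 1.5-fold in each. Of the 12 lipoprotein and cholesterol transport genes, 10 were higher in all 4, and 7 when every cell was thinned to 2000 UMIs. Of the 19 hypoxia and glycolysis genes, 14 were higher, and 9 when thinned. The other lists were mixed. Of 6 fatty acid genes 3 were higher and 1 lower in all 4 libraries, and the whole list summed to 2697, 3578, 5348 and 4015 CPM against 1981, 3911, 2394 and 2104 CPM in Cxcl9-positive cells, lower in wild-type anti-PD-L1. Of 11 secreted repair genes 4 were higher in all 4 and none lower, and of 8 matrix genes 4 were higher and 1 lower.

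The 10 highest-ranked genes included members of the lists above. Cd36 was higher in Cxcl9-negative cells by 1.12, 2.40, 2.06 and 1.10 on the log2 scale, where Cxcl9-positive cells had 44, 57.2, 72.1 and 94 CPM. Pltp was higher by 1.05, 1.71, 1.10 and 1.26, and F13a1 by 1.85, 3.04, 1.07 and 1.82. Mmp12 was higher by 0.99, 2.78, 8.95 and 4.26, with 1 UMI in the Cxcl9-positive cells of the knockout untreated library and an interval there of 6.45 to 14.26. Ltc4s, leukotriene C4 synthase, was at 56.6, 175, 55.6 and 113 CPM against 0, 2.04, 8.11 and 9.4 CPM in Cxcl9-positive cells. Against 3 counts in place of the 0, it was at least 2.58 higher on the log2 scale in the wild-type untreated library. Ccl9, a chemokine for myeloid cells, was at 1175, 1181, 1791 and 1593 CPM against 424, 376, 482 and 548 CPM. Its ratio ran only from 1.47 to 1.89 over the 4 libraries.

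Emp1 and Pmp22, membrane proteins of 1 family, Cbr2 and the calcium-binding S100a6 complete the 10 genes ranked highest by their weakest library. S100a6 was at 522, 1607, 1711 and 2896 CPM against 261, 721, 557 and 942 CPM. Apoe was higher by 0.39, 0.75, 0.68 and 0.46, and Arg1 by 0.09, 1.76, 3.09 and 2.39. The summed Arg1 level in wild-type untreated cells was thus nearly as high with Cxcl9 as without, but fewer cells carried it. When thinned, 11 of 95 Cxcl9-positive cells had an Arg1 UMI (11.6%, 5.92 to 19.8). Among Cxcl9-negative cells it was 18 of 79 (22.8%, 14.1 to 33.6), and these intervals overlap. The highest thinned cell held 27 Arg1 UMIs among the Cxcl9-positive and 10 among the Cxcl9-negative cells of this library. Cells with exactly 1 Cxcl9 UMI held 904 CPM of Arg1 there and cells with more held 45.6 CPM.

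Lower in Cxcl9-negative cells were 7 of 7 class II presentation genes past 50 CPM, in all 4 libraries and also when thinned, among them Cd74, the invariant chain, at 8100, 12073, 11512 and 13015 CPM against 13448, 16078, 20036 and 20319 CPM. Of the 24 interferon response genes 12 were lower in all 4, and 8 when thinned. Dnase1l3, a secreted DNase, ranked lowest by its weakest library, with log2 ratios of -2.29, -2.32, -1.98 and -2.27. Ccl5, a T cell chemokine, was lower, with log2 ratios of -1.29, -2.89, -1.31 and -2.46, but T cells held 484, 5068, 2136 and 4361 CPM of it. Fam26f had ratios between -1.22 and -1.12. The cell cycle genes Birc5 and Stmn1 were lower in all 4, as were 5 of 7 on the cell cycle list, and Cnn3, Cadm1, Upp1 and Lpcat2 were also among the 10 lowest-ranked. Cxcl9-negative cells were the shallower ones in every library, and the part of depth in this contrast was measured only by thinning.

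**Figure D3:**
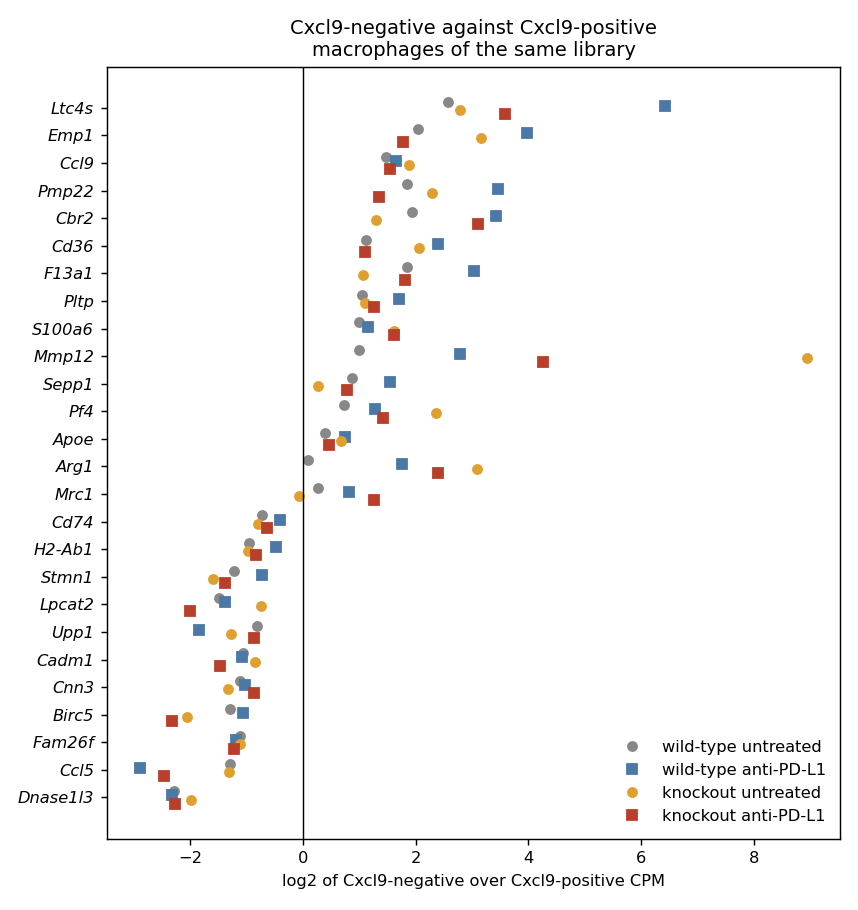
Log2 ratio of Cxcl9-negative over Cxcl9-positive macrophages within each library, for named genes, 1 point per library. Points right of 0 are higher in Cxcl9-negative cells, where Cd36, Pltp, F13a1 and Ccl9 lie in all 4 libraries, and Cd74 and Dnase1l3 lie left of 0 in all 4.

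The cells with an Arg1 UMI differed from those without among the Cxcl9-negative macrophages themselves. All cells were thinned to 2000 UMIs, giving 18, 20, 30 and 14 Arg1-positive cells and 61, 35, 69 and 18 Arg1-negative ones. Of 1026 genes with enough counts, 140 (13.6%) were higher and 60 (5.85%) lower in all 4 libraries. The classes were cut by Arg1 itself, so this is a description of cells that carry it. Of the 15 hypoxia and glycolysis genes measured, 13 were higher in all 4 libraries and none lower in all 4, with medians of 0.76, 0.77, 0.81 and 0.88. Bnip3 was higher by 0.84, 1.22, 1.15 and 1.64, Aldoa, an aldolase, by 0.78, 0.93, 0.90 and 1.21, and Ldha by 0.65, 0.59, 1.17 and 0.66. Slc2a1 was higher in 3 libraries and lower in wild-type anti-PD-L1, from -1.51 to 1.95.

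Fatty acid genes were also higher with Arg1, 4 of the 4 measured in all 4 libraries. Fabp5 was at 3500, 3225, 5750 and 2714 CPM in Arg1-positive cells against 1180, 1314, 1833 and 1472 CPM in Arg1-negative cells. Fabp4 was higher by 1.40, 2.54, 2.41 and 0.95, Hilpda by 0.76, 1.16, 2.30 and 1.14, and Plin2 by 0.82, 0.63, 1.74 and 0.08. Some of their counting intervals include 0. In wild-type untreated cells these were Fabp4 (-0.26 to 2.99) and Hilpda (-0.79 to 2.17). In knockout anti-PD-L1 cells they were Plin2 (-0.78 to 0.93) and Fabp4 (-2.18 to 4.53, from 3 and 2 UMIs). Cd36 was higher in 3 libraries, by 4.08, 1.75 and 1.92, and at -0.49 (-2.41 to 1.25) in knockout anti-PD-L1. Mmp12 was ranked first, at 472, 500, 1317 and 429 CPM against 0, 14.3, 138 and 55.6 CPM. It was found in 3 of 18, 6 of 20, 14 of 30 and 1 of 14 Arg1-positive cells, against 0 of 61, 1 of 35, 8 of 69 and 2 of 18 Arg1-negative ones, so the level in knockout anti-PD-L1 rests on 1 cell and the share of cells there goes the other way. Adam8 was higher by 1.12, 1.39, 1.62 and 1.04, Clec4d, a lectin receptor, by 2.18, 1.17, 1.60 and 1.28, and Cd300lf, a lipid-binding receptor, by 1.23, 1.81, 1.72 and 2.17. The intervals of Adam8 and Cd300lf leave out 0 only in knockout untreated cells (0.90 to 2.35 and 0.66 to 2.81).

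Apoe was lower in Arg1-positive cells, at 12389, 7525, 6050 and 5500 CPM against 15664, 18500, 10710 and 11306 CPM. Sepp1 was lower too, with log2 ratios of -0.64, -1.54, -0.48 and -0.74. Of 7 class II genes, 5 were lower in all 4 libraries, with Cd74 at -0.73, -0.69, -1.28 and -0.60 and H2-Ab1 at -0.91, -0.63, -1.61 and -0.54. Mrc1, which shares the alternative activation list with Arg1, was lower in 3 libraries and higher in knockout anti-PD-L1, from -1.89 to 1.10, and was found in 4 of 18, 4 of 20, 4 of 30 and 4 of 14 Arg1-positive cells, against 22 of 61, 13 of 35, 14 of 69 and 2 of 18 Arg1-negative ones. The counting intervals of these shares overlap in each library. Rac2, a small GTPase, was lower, with log2 ratios of -1.09, -0.64, -0.78 and -0.71.

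**Figure D4:**
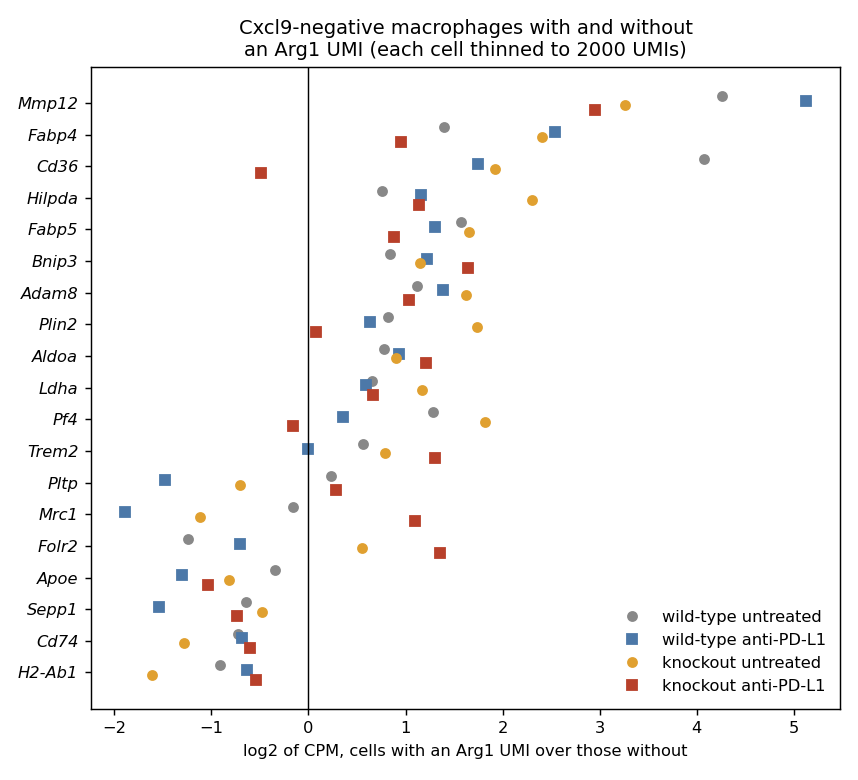
Log2 ratio of Arg1-positive over Arg1-negative cells among the Cxcl9-negative macrophages of each library, all cells thinned to 2000 UMIs, 1 point per library. Mmp12, Fabp5, Bnip3 and Aldoa lie right of 0 in all 4 libraries, and Apoe, Sepp1, Cd74 and H2-Ab1 left of 0.

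Inflammatory and interferon genes also differed between the libraries. In knockout over wild-type untreated cells, 354 of 2374 genes (14.9%) were 1.5-fold higher and 309 (13%) lower. Cxcl2, which attracts neutrophils, led with 78.3 and 1164 CPM in these libraries and a ratio of 3.89 (3.22 to 4.66). Cxcl1, its relative, had 3.64 (2.03 to 5.95) from 3 and 73 UMIs, and Irg1, which makes itaconate, 3.28 (1.33 to 6.38) from 2 and 38 UMIs. Saa3, an acute-phase protein, was at 82.7 and 624 CPM, but 1 cell held 49.8% of it in the knockout library. S100a4 was 2.72 (1.61 to 4.07) higher and Thbs1 2.64 (1.34 to 4.31). Interferon response genes were higher, 12 of 24 and none lower, with a median of 0.59, among them Irf7 at 470 and 1022 CPM and Isg15 at 274 and 551 CPM. These genes had a median of 0.49 in Cxcl9-positive macrophages, so this shift was not particular to Cxcl9-negative cells. Lowest were Fcna, ficolin A, at 122 and 11.1 CPM, then Gas6, Clec10a, F13a1 and Prmt1. Ets2, Ccl5, Cd5l and Tppp3 complete the 10 highest, and Pou2f2, Cbr2, Exosc8, Idh2 and Stmn1 the 10 lowest. The immediate early and heat shock genes, which dissociation can raise, summed to 5316, 11525, 8190 and 11567 CPM, lowest in the wild-type untreated library, and 11 of 18 were 1.5-fold higher in this comparison. In Cxcl9-positive macrophages the median of these genes was 1.05, against 0.78 here. Their part in this comparison was not tested.

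Under anti-PD-L1, 326 of 2374 genes (13.7%) were 1.5-fold higher and 204 (8.59%) lower in knockout cells. Nos2, the inducible nitric oxide synthase, was ranked first with 15.7 and 131 CPM and a ratio of 3.06 (1.71 to 4.77) from 5 and 37 UMIs. Il1rn, Pdpn, Oasl1, Gpr137b, Slamf9, Iigp1, Cd274 and AA467197 were also among the 10. Spp1 ranked there too, but below its level in T cells, so nothing is read from it. Cd274, the PD-L1 gene itself, was at 75.2 and 237 CPM, with a ratio of 1.66 (0.97 to 2.39). The interferon list had 11 of 24 higher and 1 lower (median 0.56, and 0.36 in Cxcl9-positive macrophages). Saa3 was lowest, at 1711 and 14.2 CPM, and Cd5l, Lyz1, Tmem176a, Cxcr4, Marco, Vcam1, Tmem176b, Tmem165 and Ptpra follow. Marco came from 6 and 1 cells. Immediate early genes summed alike in these 2 libraries, 11525 and 11567 CPM, and 1 of 18 was higher and 2 lower.

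The 2 comparisons by genotype share no library. Of the genes 1.5-fold higher, 90 were higher in both, which is 25.4% of the first list and 27.6% of the second, and include Hilpda, Il1rn, Plaur, Adam8, Nr1h3, Hmox1, Irf7, Isg15, Rsad2 and Cd274. Lower in both were 52, which is 16.8% and 25.5%, and include Sepp1, F13a1, Cbr2, Clec10a, Igf1, Trf, Vcam1 and Ccl12. Higher in the first and lower in the second were 42, which is 11.9% and 20.6%, and the reverse held for 36, which is 11.7% and 11%. Over all genes 14.9% were higher and 13% lower in the first comparison, and 13.7% and 8.59% in the second, so the 42 genes are also a larger share of each list than of all genes.

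Anti-PD-L1 over untreated in wild-type had 339 of 2374 genes (14.3%) 1.5-fold higher and 374 (15.8%) lower. The highest again were Cxcl2, at 78.3 and 2989 CPM with a ratio of 5.25 (4.59 to 6.02), Cxcl1 at 4.68 (3.10 to 6.98) and Irg1 at 4.66 (2.75 to 7.73), followed by Saa3, Cd5l, Ets2, Tppp3, Nr4a1, S100a4 and Fosb. This comparison and the one between untreated libraries share the wild-type untreated library, the shallowest, so they are not independent. Immediate early and heat shock genes were higher in 14 cases of 18 and lower in none (median 1.37). The lowest were Hpgds, a prostaglandin D synthase, at 170 and 18.8 CPM with a ratio of -3.17 (-4.70 to -1.92), Prmt1, the lectins Clec4b1 and Clec4n, Syngr1, Cd81, Acp5, Serpina3g and Os9, with Spp1 again below its level in T cells. The lipid transport list had 5 of 12 higher and none lower (median 0.34, and 0.39 in Cxcl9-positive macrophages).

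In knockout cells, 265 of 2374 genes (11.2%) were 1.5-fold higher with anti-PD-L1 and 166 (6.99%) lower. The lipid lists did not follow those of wild-type cells, with 0 of 12 transport genes higher and 1 lower (median -0.01), and 0 of 5 fatty acid genes higher and 2 lower (median -0.57). Whether the antibody ratio differs between genotypes was not tested. Nos2 was highest, at 26.7 and 131 CPM with a ratio of 2.30 (1.33 to 3.37). Pcna, Hspa1a, Plk2, Snrpg, Tnip3, Trib1, Sarnp and Dusp3 were among the next. Saa3 was lowest, at 624 and 14.2 CPM, with Cd5l, Glipr1, Tmem176a, Ccl12, Fabp4, Mmp12, Tmem165, Vcam1 and C3 after it. Ccl12 and Vcam1 turn to 0.03 and 0.46 when macrophages are thinned before Cxcl9 is read. Fabp4 and Mmp12 are thus the lipid and the matrix gene among the 10 lowest.

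**Figure D5:**
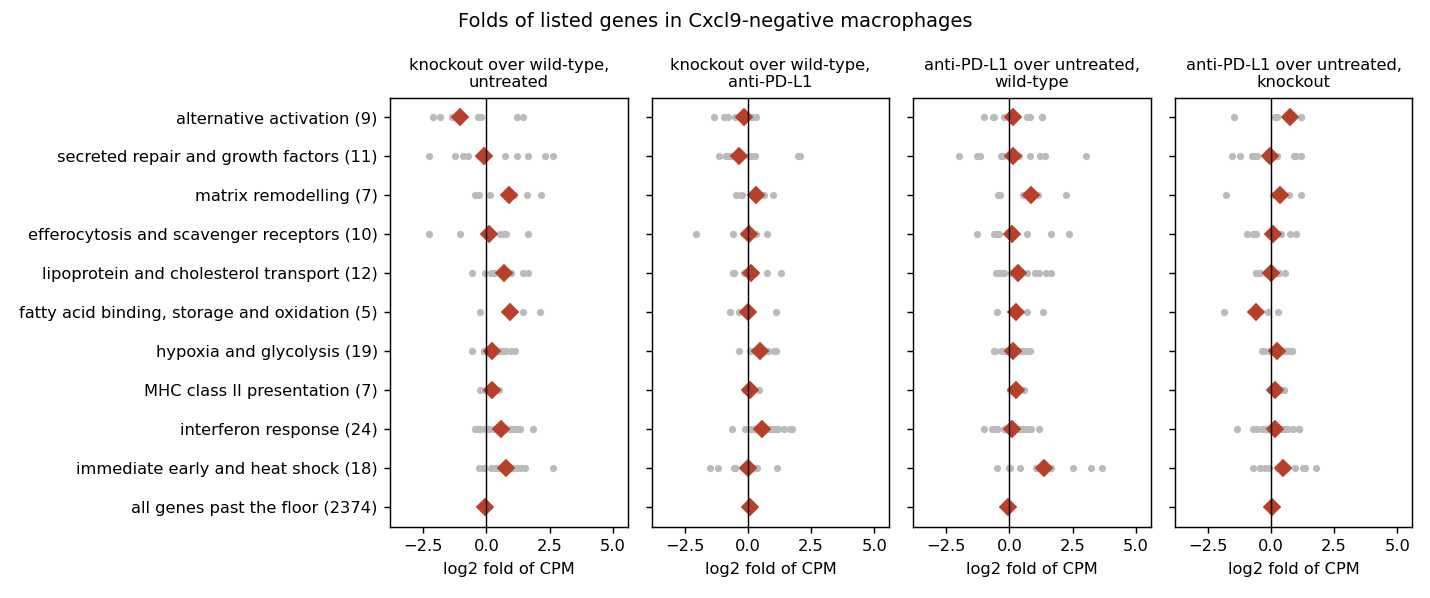
Log2 ratio (x axis) of the genes of each list past 50 CPM, with their number (y axis), in the 4 comparisons between libraries, for Cxcl9-negative macrophages. Grey dots are genes, diamonds the median of a list, and the bottom row gives the median of all genes. Fatty acid and lipoprotein lists lie right of 0 in knockout over wild-type untreated cells (0.94 and 0.68), where alternative activation lies at -1.06.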

How the data were processed

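Single-cell RNA of 4 libraries (10x Chromium 3′ version 2 chemistry, per the labels' protocols) was used. The authors deposited tables of UMI counts per barcode and gene. The submitters' processing notes name the mm10 build and tools without roles (among them Trim Galore 0.5.0, HTSeq and HISAT2), so the caller of these counts is not given in the sources used here. The 16 other samples of the series, 8 RNA sequencing and 8 ATAC sequencing samples, were not analysed here. Each table lists barcodes in 2 listings, with 1 or with 2 hyphens, and the second listing (2384, 1680, 2312 and 1346 barcodes) was used. Of the columns 27916 genes shared by all 4 tables were kept, and the columns left out held at most 0.00281% of UMIs. Over all barcodes the libraries held 16208647, 11986122, 13825922 and 11835413 UMIs.

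The counts of the chosen cells were summed per library and scaled to CPM, a total of 1000000 counts. A ratio is called higher or lower past 1.5-fold (0.58 on the log2 scale) for genes whose mean level in the 4 libraries is 50 CPM or more. In ratios, 3 counts stood in for 0. Intervals of ratios are exact conditional binomial, those of shares Clopper-Pearson, both at 95%, and they cover counting error only. The calculation was tested on simulated data. No doublet caller was run, and the Cd3 and pigment limits of the gate stood in for it. T cells for background had at least 3 Cd3 UMIs. Thinning drew 2000 UMIs per cell with a fixed seed. Ratios by Arg1 used genes with at least 20 UMIs in each class over the 4 libraries.

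Genes named are the 5 markers, members of the 27 lists, and the 10 highest and 10 lowest per comparison whose ratio stayed past 1.5-fold without the highest cell of each library, leaving out mitochondrial, ribosomal, receptor, immunoglobulin, predicted, sex-linked and other-cell genes. A few genes that the rule names are not reported here. Against Cxcl9-positive cells, genes were ranked by their weakest library. The cells and gene lists were chosen with earlier results of these data known, so no pattern is independent support for another. Alternatives changed the level required, the fold, the depth, the gate, the barcode listing and the scaling (edgeR 4.0.16 TMM factors in R 4.3.3). Promoter windows and gene positions are RefSeq's for GRCm38.p6. Python 3.11.15, numpy 2.4.6, scipy 1.17.1 and matplotlib 3.10.9 were used.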

Additional observations from a re-analysis of the deposited data

Results flagged for a closer look

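Some genes of the Cxcl9-negative macrophages went in opposite directions under the same contrast in 2 settings, past 1.5-fold and with counting intervals that leave out 0 in both. With 1 library per group, none of these differences was tested. Values are log2 ratios.

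For knockout over wild-type, without and with anti-PD-L1, Pf4 had 0.74 and -0.86, Thbs1 2.64 and -1.13, Osm, the cytokine oncostatin M, 1.20 and -0.86, Cxcl2 3.89 and -0.70, and Tppp3 2.66 and -0.96. Saa3 had 2.92 and -6.92, Cd5l, a secreted scavenger protein, 2.73 and -5.35, and Retnla 1.44 and -1.33. For anti-PD-L1 over untreated, in wild-type and in knockout cells, Thbs1 had 3.04 and -0.74, Mmp12 0.86 and -1.76, Saa3 4.37 and -5.46, Cd5l 4.05 and -4.03, and Retnla 1.29 and -1.47.

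Cd5l, Retnla, Saa3 and Mmp12 came from few cells. Saa3 was counted in 8, 17, 18 and 2 cells, Cd5l in 2, 6, 8 and 1, Retnla in 1, 2, 3 and 1, and Mmp12 in 3, 8, 22 and 4, where 1 cell gave 60.9% of Mmp12 in the wild-type untreated and 83.8% in the knockout anti-PD-L1 library. The Cxcl9-positive macrophages of the knockout anti-PD-L1 library held 893 CPM of Saa3 where the Cxcl9-negative ones held 14.2 CPM.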

How the results depend on the processing

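The Cxcl9-negative cells of the wild-type untreated library were the shallowest, which limits every comparison with them. No paired analysis was possible because each group has 1 single-cell library. The counts of genes past 1.5-fold depend on the level and fold required. In the order of knockout over wild-type untreated and under anti-PD-L1, then anti-PD-L1 over untreated in wild-type and in knockout, the genes higher and lower at a mean of 20 CPM were 842 and 867, 868 and 644, 870 and 945, and 746 and 566. At 100 CPM they were 162 and 129, 123 and 66, 150 and 155, and 102 and 56. At a fold of 2 they were 152 and 77, 78 and 41, 152 and 104, and 62 and 43. With a counting interval that must leave out 1, chosen after seeing the data, they were 215 and 182, 160 and 82, 198 and 209, and 156 and 79. These settings change how many genes can be counted.

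Thinning macrophages to 2000 UMIs before Cxcl9 is read moved cells with few Cxcl9 UMIs into the class. It gave 517 higher and 325 lower for knockout over wild-type under anti-PD-L1, and 419 and 271 for anti-PD-L1 in knockout. Cells of at least 5000 UMIs gave 287 lower in the latter. That setting left 3 wild-type untreated cells and was not run where they are needed. The genes 1.5-fold higher and lower in Cxcl9-negative cells in every library were 43 and 36 at 20 CPM, 16 and 9 at 100 CPM, 9 and 4 at a fold of 2, and 10 lower when thinned. Without the wild-type untreated library, chosen after seeing the data, they were 48 and 46. The first listing of barcodes gave 70, 45, 88 and 35 cells and shared 19 of the 28 higher and 8 of the 19 lower genes, and thinning before the split shared 15 and 4 of them.

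The share of macrophages without Cxcl9 was 67.2% in wild-type untreated and 42.1% in knockout untreated cells if 1 UMI is allowed. When thinned it was 56.9%, 62.3%, 44% and 36.7%, and 23.5% in knockout untreated cells of at least 5000 UMIs. Thinning reversed knockout over wild-type for Nr1h3 without antibody (-0.04), and under anti-PD-L1 for Igf1 (0.49) and the monocyte list (median 0.04). It reversed anti-PD-L1 in knockout for Ccl12 (0.03), Vcam1 (0.46) and Mrc1 (-0.21). Without its highest cell Retnla was -0.55, 0.18, -0.47 and 0.26 in the 4 comparisons, -0.22 for anti-PD-L1 in wild-type with the first listing and 1.67 in knockout at 5000 UMIs. The cause of these reversals was not tested. TMM scaling, equal weight per cell and the stricter gate turned the sign of no reported ratio past 1.5-fold.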

Other observations

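Several chemokines of monocytes were abundant in the Cxcl9-negative macrophages. Ccl8 was at 8800, 6160, 4597 and 4419 CPM in the 4 libraries, in the order of the report, and Ccl2 at 1496, 865, 704 and 991 CPM, both highest in the wild-type untreated library. Ccl12 was at 1349, 417, 518 and 142 CPM, lower in each of the 4 comparisons, with log2 ratios of -1.38, -1.56, -1.69 and -1.87. The last turns to 0.03 when macrophages are thinned to 2000 UMIs before Cxcl9 is read. Ccl6 stayed between 3018 and 3367 CPM in these cells, against 811 to 1647 CPM in Cxcl9-positive macrophages.

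Lysosomal genes were near even across libraries apart from Ctsl and Gpnmb. Ctsl, cathepsin L, was at 592, 1175, 1824 and 1126 CPM, against 312 to 508 CPM in Cxcl9-positive cells. Gpnmb, a glycoprotein of lipid-laden macrophages, was at 144, 94, 431 and 166 CPM. Both were highest in the knockout untreated library.

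Vcam1, an adhesion molecule, was at 261, 144, 116 and 35.4 CPM, and Cd14, the lipopolysaccharide co-receptor, at 109, 683, 640 and 832 CPM in 16, 46, 70 and 25 cells.

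No Cxcl9-negative macrophage had a UMI of a Y-linked gene, which by a limit of 3 counts allows shares of up to 3.8%, 5.45%, 3.03% and 9.38% of cells with such a UMI. Xist was counted in 81%, 85.5%, 83.8% and 96.9% of them. Y-linked UMIs were found in 10.9%, 14.3%, 0.128% and 0% of T cells, and Xist in 69.1%, 71.8%, 94.1% and 95.4%. By the same limit the 0% of 1031 T cells allows a share of up to 0.291%. The labels do not give the sex of donors or recipients.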
